A study of Zea mays with 16 samples.

Results

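Of 1000 array probes measured in maize (Zea mays) kernels, 37 had a mean water stress response above 0 in both drought tolerant lines and below 0 in both susceptible lines. The 37 members came from the 700 probes ranked 101 to 800 by mean well watered signal over 16 arrays, where rank 1 is the brightest. For each spot and channel the local background was subtracted with a floor of 50 and the log2 taken, and spots of a probe were averaged. The stress minus well watered difference, less the median of its array, is called the background-subtracted ratio here, and a line's value is its mean over 4 arrays. The members were thus selected on the signs of these 4 measured line means, with no minimum size. The responses of the lines and their contrast between the classes are therefore given as a description, with no test.

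Each array held stressed and well watered kernels of a single line. RIL60 and RIL78 are the tolerant lines and RIL66 and RIL68 the susceptible ones, and each is a recombinant inbred line that stands for 1 genotype. Stressed plots were kept at a soil moisture near 16% of dry weight from 3 weeks before flowering, and well watered plots at about 30%, in the field with 2 randomised blocks per treatment. Poly(A) RNA came from pools of 6 to 9 kernels from 3 ears at 10 days after pollination, and each line had 2 arrays with the stress RNA in Cy5 and 2 with it in Cy3. The labels do not say whether the 4 arrays of a line used separate extracts, so a p-value here rests on differences between hybridisations, which may be only technical.

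A maize kernel at this age is passing from cell division in the endosperm to the storage of starch and protein. Water deficit around flowering is known to cut the supply of sugars to the ear, to raise abscisic acid and to cause kernel abortion. Inbred lines from a common cross carry different fixed combinations of the parental alleles, which makes lines of opposite field behaviour useful for comparison. A kernel pool mixes endosperm, embryo and maternal tissue, so a smaller share of a tissue and less RNA per cell cannot be told apart. None of the 1000 probe IDs, and 0 of the 37 members, matched any of the 49888 rows of the gene table. The members are therefore named by probe ID, their roles are not given, and the tissue could not be checked against its markers.

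Between 37.5% and 83.4% of probes on an array exceeded the local background by 2 background SDs in at least 1 channel. The stress signal of the members was above background on a median of 13 of 16 arrays, against 8 for all probes. Their well watered signal was above it on a median of 14 arrays, against 10 for all probes. The rule selects on the rank of the well watered signal, so these differences from all probes are not independent of it. In RIL66 the stress signal of a116pe0466 and a116pe0439 was above background on none of the 4 arrays, and that of a116pe0466 on none in RIL68, so these values are only bounds. Of 32000 probe spots the authors' mark excluded 106, of which 2 belonged to members. No day in the scan file headers held arrays of both classes, so class and day cannot be told apart.

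The responses that defined the members were mostly under 0.5 in size on the log2 scale. In RIL60 the line means ran from 0.0070 to 1.29, with a median of 0.25. In RIL78 they ran from 0.0066 to 0.49, with a median of 0.18. The RIL66 means lay between -0.77 and -0.01, with a median of -0.36, while those of RIL68 lay between -0.38 and -0.0016, with a median of -0.07. The median over all 1000 probes was 0.0067 in RIL60 and 0.0079 in RIL78, and 0.02 in RIL66 and -0.0041 in RIL68. A size over 0.5 was reached by 5 members in RIL60, 11 in RIL66 and 0 in RIL78 and in RIL68.

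**Figure D1:**
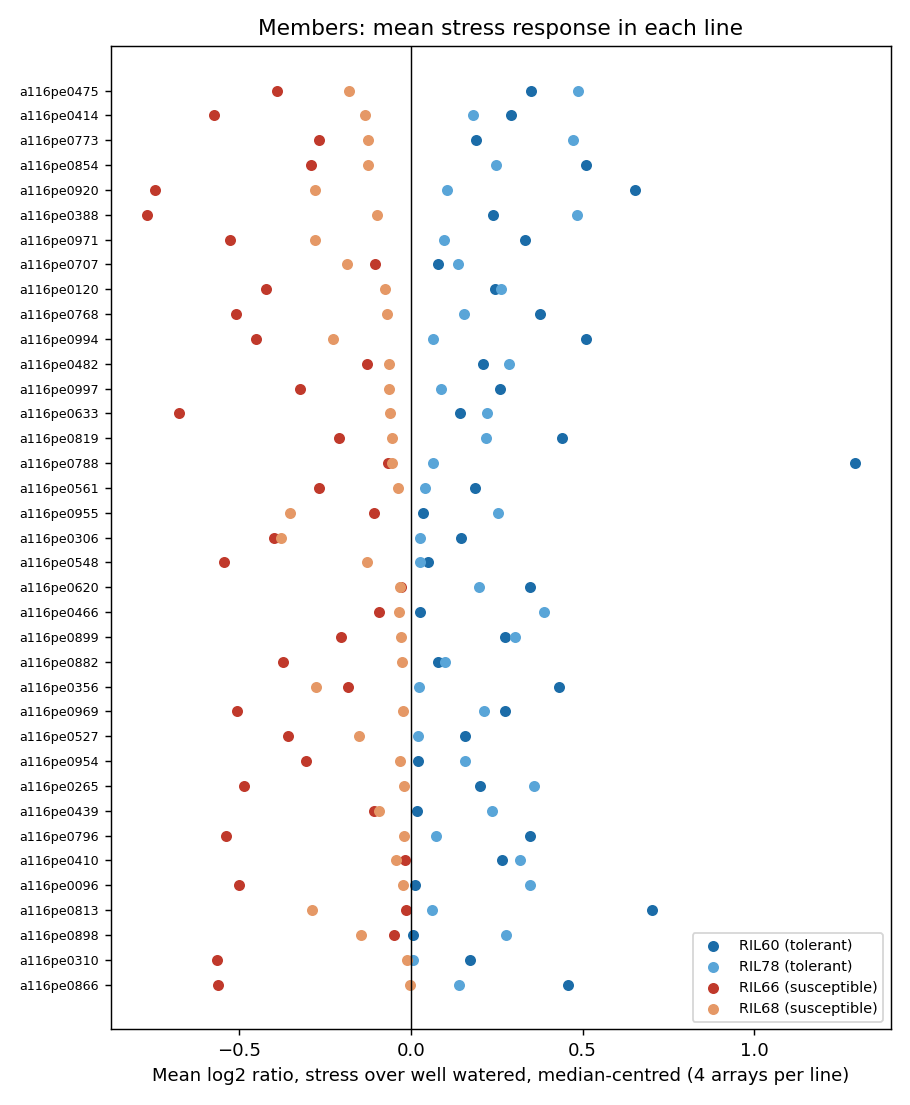
Mean background-subtracted log2 ratio, stress over well watered (horizontal axis), of the 37 members (vertical axis, ordered by the line where the size is smallest); each point is the mean of 4 arrays of a line. Most RIL68 points lie close to 0, and RIL60 reaches 1.29 for a116pe0788.

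The line mean exceeded the SD of its 4 arrays for 12 members in RIL60 and 11 in RIL78, and for 20 in RIL66 and 2 in RIL68. All 4 arrays had the sign of the line for 8 members in RIL60 and 9 in RIL78, and for 19 in RIL66 and 2 in RIL68. The weakest of the 4 lines was RIL68 for 19 members, RIL78 for 8, RIL60 for 7 and RIL66 for 3. The size in the weakest line had a median of 0.03, exceeded 0.1 for 5 members and stayed under 0.05 for 21. Between 9 and 14 of the 16 arrays carried the sign of the class, with a median of 11. On the background-subtracted scale 0 members had all 8 tolerant arrays above all 8 susceptible arrays, as did 0% of the 1000 probes. All 8 tolerant arrays were above 0 for 2 members, a116pe0819 and a116pe0410, and all 8 susceptible arrays were below 0 for 0.

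Probe a116pe0475 kept the largest size in its weakest line. Its ratios were 0.53, 0.69, 0.22 and -0.05 in RIL60 and 0.30, 0.34, 0.72 and 0.59 in RIL78. In RIL66 they were -0.31, -0.40, -0.49 and -0.36, and in RIL68 -0.12, 0.03, -0.14 and -0.48. The classes overlapped through 1 array on each side, the lowest of RIL60 and the highest of RIL68.

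Probe a116pe0414 ran from -0.02 to 0.53 over the tolerant arrays, with a median of 0.28, and from -0.84 to 0.24 over the susceptible arrays, with a median of -0.44. For a116pe0773 the tolerant arrays lay between -0.15 and 0.65 (median 0.50) and the susceptible ones between -0.56 and 0.14 (median -0.16). Both overlapped in part through RIL68 arrays above 0 and RIL60 arrays below 0. For a116pe0414 the RIL78 arrays at 0.14 and 0.04 also lay under the highest RIL68 array. For a116pe0773 a RIL66 array at -0.148 and a RIL68 array at -0.08 also lay above the lowest RIL60 array, at -0.150. Probe a116pe0920 had a wide spread in every line: 0.65 ± 0.73 in RIL60 and 0.11 ± 0.67 in RIL78, against -0.74 ± 0.53 in RIL66 and -0.28 ± 0.56 in RIL68 (SD, n = 4 arrays each). Its tolerant arrays reached 1.45, yet both arrays of RIL78 with stress in Cy3 were at -0.48 and -0.44.

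Probe a116pe0388, the brightest member, was lowest in RIL66, at -0.82, -0.72, -0.67 and -0.87. In RIL68 it stood at 0.09, 0.21, -0.16 and -0.54, so that line held both signs. Probe a116pe0854 averaged 0.51 ± 0.58 in RIL60 and -0.12 ± 0.50 in RIL68 (SD, n = 4 arrays each), with tolerant arrays down to -0.08 and susceptible arrays up to 0.46. For a116pe0971 the means were 0.33 ± 0.74 in RIL60 and 0.10 ± 0.45 in RIL78, against -0.53 ± 0.32 in RIL66 and -0.28 ± 0.42 in RIL68 (SD, n = 4 arrays each). Only 4 of its 8 tolerant arrays were above 0, against 7 of 8 susceptible arrays below 0. Probe a116pe0707 stayed within -0.11 to 0.38 on the tolerant arrays and -0.67 to 0.19 on the susceptible ones, and no line mean exceeded its SD.

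**Figure D2:**
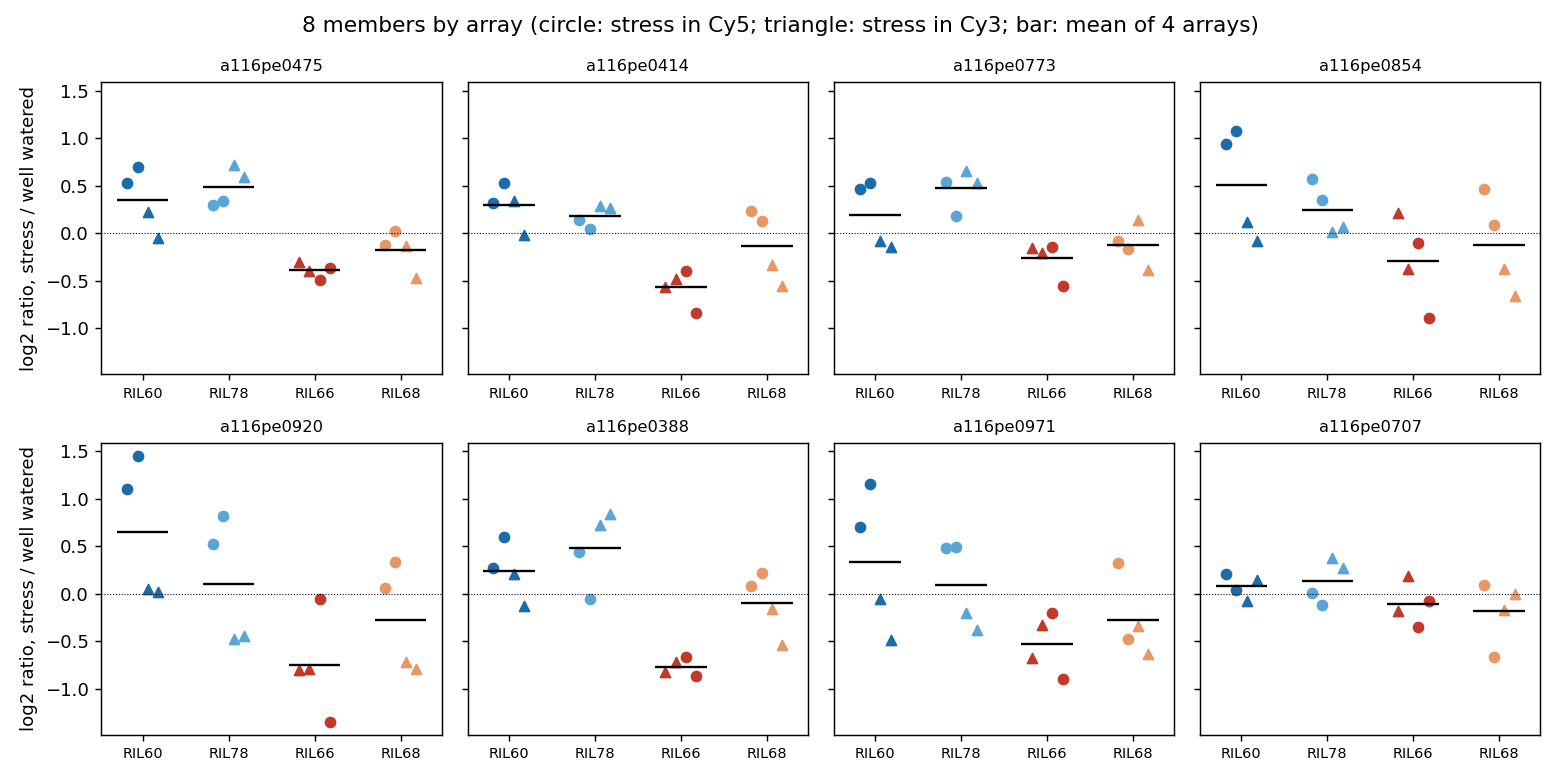
Background-subtracted log2 ratio, stress over well watered (vertical axis), on each of the 16 arrays for the 8 members with the largest size in their weakest line; circles have stress in Cy5, triangles stress in Cy3, bars are means of 4 arrays. For a116pe0920 and a116pe0971 circles and triangles of the tolerant lines separate.

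Among the other bright members a116pe0997 averaged 0.26 ± 0.45 in RIL60 and -0.06 ± 0.48 in RIL68 (SD, n = 4 arrays each), both within 1 SD of 0. Probe a116pe0994 stood at 0.65, 1.10, 0.23 and 0.05 in RIL60, where all arrays were above 0, but at -0.05, 0.06, 0.03 and 0.21 in RIL78. Each of the 3 dimmest members had arrays of both signs within a line. Of the 16 arrays, 11 had the sign of the class for a116pe0620 and 10 for a116pe0466. Probe a116pe0955 had 9 of 16 arrays with the sign of its class, and its RIL68 mean of -0.35 rested on a single array at -1.55. In RIL66 the mean of a116pe0620 was -0.03, with 1 array at -0.90 and the others at 0.27, 0.09 and 0.43. The ratio of a116pe0466 in RIL78 was -0.15, -0.36, 1.34 and 0.72, again with both signs.

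Members next to 0 had neighbours just across it. Just inside were a116pe0866, at -0.0016 in RIL68, a116pe0310, at 0.0066 in RIL78, and a116pe0898, at 0.0070 in RIL60. Just outside were a116pe0614, at 0.0031 in RIL68, a116pe0669, at -0.0035 in RIL78, and a116pe0924, at 0.0057 in RIL68. The distances of the 3 members from 0 were smaller than the SD of the 4 arrays: 0.37 for a116pe0866 in RIL68, 0.40 for a116pe0310 in RIL78 and 0.20 for a116pe0898 in RIL60.

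The 37 were not a large share of the sign patterns in the window. The pattern +--- (RIL60, RIL78, RIL66, RIL68) held 105 probes, ---- held 92 and ++++ held 59. The opposite pattern, below 0 in both tolerant and above 0 in both susceptible lines, held 39 probes, and its median size in the weakest line was 0.03 as well. The least frequent pattern, +-+-, held 17.

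One array decided many of the memberships. Without replicate 4 of RIL68 the rule found 19 probes, and 18 of the 37 members kept their 4 signs. On that array the member median was -0.38 and 3 of the 37 members were above 0, against 22, 20 and 13 on replicates 1, 2 and 3 of RIL68. With any other single array left out, the number found and the number keeping their signs stayed within 1.5 times of 37. Each array has a median ratio that was subtracted, and in RIL66 this shift was large: 1.78, 0.86, 0.38 and 0.67 on the log2 scale. It was -0.30, -0.41, 0.80 and 0.81 in RIL68, and between -0.42 and 0.32 on the tolerant arrays. Without this subtraction 0 probes met the rule, so "below 0" in the susceptible lines means below the median probe of the array.

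Membership followed brightness. Of the 37 members 20 lay in ranks 101 to 275, 13 in ranks 276 to 450, 4 in ranks 451 to 625 and 0 in ranks 626 to 800, with 175 probes in each range. The opposite pattern ran the other way, with 1, 2, 18 and 18 probes. The median rank was 272 for the members and 611 for the opposite pattern. In RIL66 the median ratio of all probes in these 4 ranges was -0.49, -0.22, 0.03 and 0.26, and the share of probes below 0 was 93.7%, 88%, 37.7% and 5.14%. In RIL68 the medians were -0.12, -0.03, 0.01 and 0.04. RIL78 had medians of -0.19, -0.11, -0.0068 and 0.07 and RIL60 of 0.09, -0.0080, -0.02 and -0.02.

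**Figure D3:**
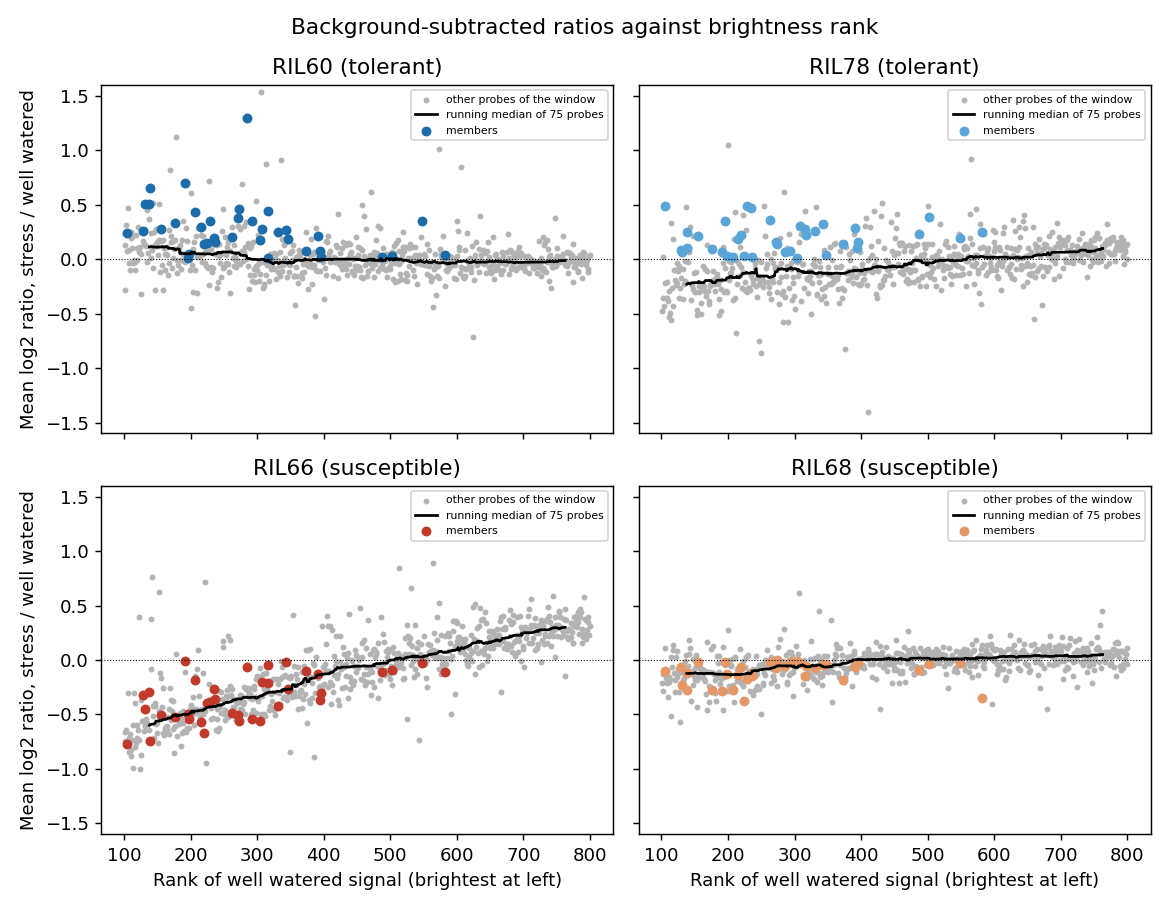
Mean background-subtracted log2 ratio (vertical axis) against rank of well watered signal (horizontal axis, brightest at left) for the 700 probes of the window in each line; coloured points are the 37 members, black lines are running medians, and 1 probe of RIL78 lies beyond the axis. In RIL66 the median line climbs from the bright to the dim end and most members lie near it, while in RIL60 and RIL78 most members lie above it.

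Single arrays differed in this slope. Over ranks 101 to 275 the median ratio was -0.51, -0.40, -0.27 and -0.80 on the RIL66 arrays and 0.03, 0.11, -0.12 and -0.51 on the RIL68 arrays. On the RIL60 arrays it was 0.17, 0.47, -0.04 and -0.25, and on the RIL78 arrays it lay between -0.18 and -0.05. The RIL68 array that decided many memberships had the lowest median of its line among these bright probes.

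Loess normalisation fits each array's ratio against brightness and subtracts the curve. It was applied after a normexp background correction with an offset of 50, and the result is called the loess ratio. The array medians over ranks 101 to 275 then lay between -0.19 and 0.04. Some slope was left, most on replicate 3 of RIL68, whose median was -0.19 over ranks 101 to 275 and 0.12 over ranks 626 to 800, and on replicate 1 of RIL66, with -0.10 and 0.11. On this scale 11 members kept all 4 signs and 26 lost at least 1. The signs held for 34 members in RIL60 and 37 in RIL78, but for 22 in RIL66 and 22 in RIL68. Both susceptible signs held for 12 members, and 5 members were above 0 in both susceptible lines. The name "down in susceptible lines" is thus not borne out by the loess ratios for 25 of the 37 members: 20 lost that sign in 1 susceptible line and 5 in both. The member medians were 0.20 in RIL60 and 0.38 in RIL78, and -0.08 in RIL66 and -0.06 in RIL68. The same rule on loess ratios also found 37 probes in the window.

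**Figure D4:**
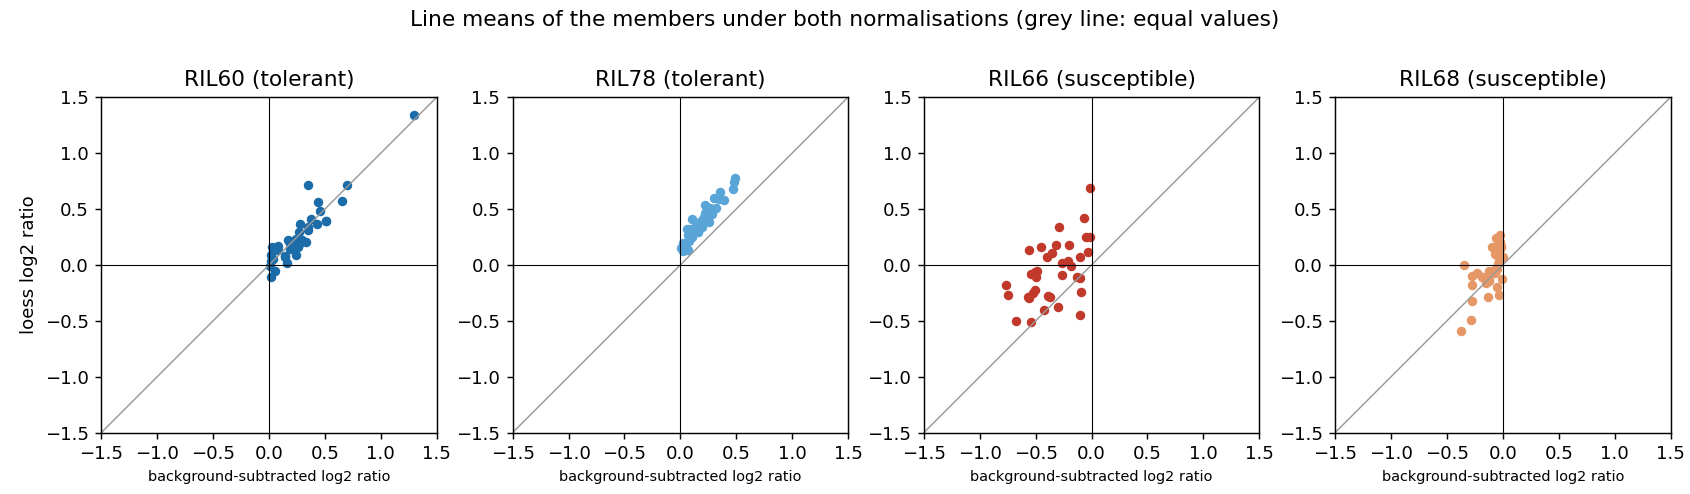
Line means of the 37 members: loess log2 ratio (vertical axis) against background-subtracted log2 ratio (horizontal axis), both stress over well watered, 1 panel per line; the grey line marks equal values. In RIL78 all 37 points stay above 0, while in RIL66 and RIL68 15 points each lie above 0 on the loess scale.

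The 11 that kept their signs were a116pe0475, a116pe0414, a116pe0920, a116pe0971, a116pe0120, a116pe0482, a116pe0561, a116pe0955, a116pe0356, a116pe0439 and a116pe0310. In the authors' deposited table of log2 ratios 8 members kept them, all 8 among these 11. A further condition, that the background-subtracted signs also hold without replicate 4 of RIL68, left 4: a116pe0475, a116pe0920, a116pe0971 and a116pe0439. Even among them the loess line means were small in RIL68, at -0.11 for a116pe0475, -0.18 for a116pe0920, -0.32 for a116pe0971 and -0.08 for a116pe0439. The RIL66 ratio of a116pe0439 is only a bound, because its stress signal was above background on none of the 4 arrays there. Its well watered signal was above background on 3 of them.

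Probe a116pe0475 had loess ratios of 0.38, 0.37, 0.31 and 0.20 in RIL60 and of 0.51, 0.53, 1.02 and 1.05 in RIL78. Those of RIL66 were -0.41, -0.24, -0.51 and 0.04, and those of RIL68 -0.29, -0.06, -0.14 and 0.07. All tolerant arrays were above all susceptible ones. The same held for a116pe0120, whose tolerant arrays ran from 0.12 to 0.72 and whose susceptible arrays ran from -0.56 to 0.04. These were 2 of the 3 probes without overlap on the loess scale, which is 0.3% of all 1000 probes. The rule chose members on the same arrays and in this direction, which favours such a separation, so it is only a description.

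Both dye orientations rarely gave the pattern by themselves. From the arrays with stress in Cy5 alone 6 members had all 4 signs, and from those with stress in Cy3 alone 14. In both orientations 2 members had them, a116pe0475 and a116pe0994. On the loess scale the counts were 6, 5 and 1. Duplicate spots were compared too: 27 members had the 4 signs on the first spot, 23 on the second, 17 on both and 4 on neither. Over all 1000 probes the loess ratios of arrays with opposite orientation correlated at -0.02 to 0.14 within RIL60, -0.08 to 0.11 within RIL78, 0.38 to 0.63 within RIL66 and -0.05 to 0.15 within RIL68. Arrays of the same orientation correlated at 0.72 and 0.45 in RIL60 and at 0.41 and 0.65 in RIL78, while RIL66 had 0.37 and 0.38 and RIL68 0.21 and 0.31. These correlations are across probes, which share the array and its dyes.

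The dye effect does not enter the line means whose signs the rule used, since the orientations were balanced in every line. The rule also used brightness ranks, so the share of members called is not fully independent of it. The dye effect was tested with limma's moderated fit on the loess ratios of all 16 arrays. Benjamini-Hochberg adjustment covered 1000 probes, with a threshold of 0.05, as in all later tests. A dye effect was called for 9 members, which is 24.3% of them, against 10.9% of all probes. Among the 350 probes of ranks 101 to 450, where 33 members lie, it was called for 18.3%. Coefficients below are per orientation, positive where the ratio was higher with stress in Cy5.

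Probe a116pe0096 had the largest dye effect of the members, -0.56 (SE 0.10, limma adjusted p = 0.00732), a 2.18-fold difference between orientations. Its loess ratios ran from -1.10 to 0.10 with stress in Cy5, with a median of -0.36, and from 0.03 to 1.72 with stress in Cy3, with a median of 0.51. In RIL78 they were -0.31 and -0.60 with stress in Cy5 and 1.72 and 1.55 with stress in Cy3. The orientations thus had opposite signs in that line, and the positive line mean followed the Cy3 arrays.

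Lower ratios with stress in Cy5 were also called for a116pe0466 (-0.48), a116pe0969 (-0.37), a116pe0633 (-0.36), a116pe0954 (-0.32) and a116pe0898 (-0.30). Higher ratios with stress in Cy5 were called for a116pe0920 (0.34), a116pe0310 (0.33) and a116pe0265 (0.32). In RIL78 the loess ratios of a116pe0920 were 0.85 and 1.24 with stress in Cy5 and -0.22 and -0.21 with stress in Cy3. Leaving out single arrays ended the call for a116pe0310 in 10 of 16 cases and for a116pe0898 and a116pe0954 in 6 each.

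Whether the tolerant lines responded alike was tested as RIL60 minus RIL78. The rule required both of these responses to be above 0, which restricts their difference, so the counts and p-values of the members carry that selection and are not independent of it. Of the members 1 passed, with 2.5% of all probes called and 4% of those in ranks 101 to 450. An unadjusted limma p under 0.05 was found for 8 members. The share of all probes at that unadjusted threshold was not counted, so nothing is read from the 8. The difference was above 0 for 12 members and below 0 for 25, with a median of -0.17, against -0.0064 for all probes. It ran from -0.69 to 1.20.

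The member that passed, a116pe0788, had the larger response in RIL60. Its loess ratios were 1.53, 1.65, 1.26 and 0.91 in RIL60 and 0.19, 0.96, -0.21 and -0.40 in RIL78. The lowest RIL60 array lay slightly under the highest RIL78 array, and within each dye orientation the lines did not overlap. The difference was 1.20 (SE 0.21, limma adjusted p = 0.00168), a 2.30-fold larger ratio in RIL60. Over 27 other settings it lay between 0.92 and 1.43 and passed in all of them. In RIL66 the same probe stood at 0.49, 0.44, 0.51 and 0.23, so its sign there turned: the background-subtracted mean was -0.06 ± 0.26 and the loess mean 0.42 ± 0.13 (SD, n = 4 arrays each). Its well watered level in RIL60 minus RIL78 was 0.69 (SE 0.28, limma adjusted p = 0.126).

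The difference RIL66 minus RIL68 carries the same selection, since the rule required both responses to be below 0. In this comparison 1 member passed, with 1% of all probes called and 1.43% of those in ranks 101 to 450. At an unadjusted limma p under 0.05 there were 6 members, again without a share of all probes beside it, so nothing is read from this count. The difference was above 0 for 19 members and below 0 for 18, with a median of 0.00064, against 0.03 for all probes, and a range from -0.74 to 1.18.

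This member, a116pe0813, had loess ratios of 1.04, 0.42, 0.66 and 0.61 in RIL66 and of 0.01, -0.30, -1.14 and -0.57 in RIL68. The lines did not overlap. The difference was 1.18 (SE 0.24, limma adjusted p = 0.0113), 2.27-fold. Without replicate 3 of RIL68 it was 0.98 and missed the threshold (limma adjusted p = 0.0579). With the header day as a block it was 1.09 (limma adjusted p = 0.180), and within the day shared by 1 RIL66 and 3 RIL68 arrays 0.60 (limma adjusted p = 0.997), where the lone RIL66 array is assumed to vary like the rest. On the background-subtracted scale the RIL66 mean was -0.01 ± 0.24, which made the probe a member, while its loess mean there was 0.68 ± 0.26 (SD, n = 4 arrays each). In RIL60 it averaged 0.70 ± 0.45 before and 0.71 ± 0.31 after loess.

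The lines also differed in the well watered level of members. The rule ranked probes on the mean level over all arrays, and each line's level also enters the response of that line. The level counts and p-values of the members below are thus not fully independent of the selection. Levels are log2 values after loess and scaling of mean intensities between arrays, and are compared within a probe only. In RIL60 minus RIL78 7 members passed, which is 18.9%, against 10.2% of all probes and 18.6% of those in ranks 101 to 450. Of the 7 members, 4 were higher in RIL60 and 3 lower. The median over the 37 members was 0.51, against -0.02 for all probes. No median was taken over ranks 101 to 450, so brightness was not matched in this contrast.

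Probe a116pe0527 had well watered levels of 11.41, 11.90, 12.36 and 11.67 in RIL60 and of 9.03, 9.34, 9.68 and 8.98 in RIL78. The lines were far apart, by 2.57 (SE 0.30, limma adjusted p = 1.19e-05) or 5.96-fold. Probe a116pe0707 differed the other way, at 9.16, 9.03, 9.25 and 9.29 in RIL60 and 11.22, 10.82, 9.94 and 10.47 in RIL78, again without overlap. Its difference was -1.43 (SE 0.27, limma adjusted p = 0.00136). Both passed in all 26 other settings.

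The higher level in RIL60 was 1.29 for a116pe0096, 1.11 for a116pe0120 and 1.08 for a116pe0356. The difference was -1.26 for a116pe0773 and -1.14 for a116pe0819, each with 1 RIL78 array inside the range of RIL60. With the header day as a block 4 members passed, and 4 also within the day shared by 3 RIL60 and 4 RIL78 arrays. Without replicate 3 of RIL60 the count was also 4. Leaving out that array ended the calls of a116pe0096, a116pe0120 and a116pe0356. The call of a116pe0120 ended in 4 of 16 leave-one-out fits, that of a116pe0356 in 6 of 16, and that of a116pe0773 without replicate 1 of RIL78. With the day block the limma adjusted p was 0.103 for a116pe0096, 0.114 for a116pe0120 and 0.0903 for a116pe0356. Within the shared day these 3 and a116pe0819 missed the threshold, the last with a limma adjusted p of 0.0663.

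**Figure D5:**
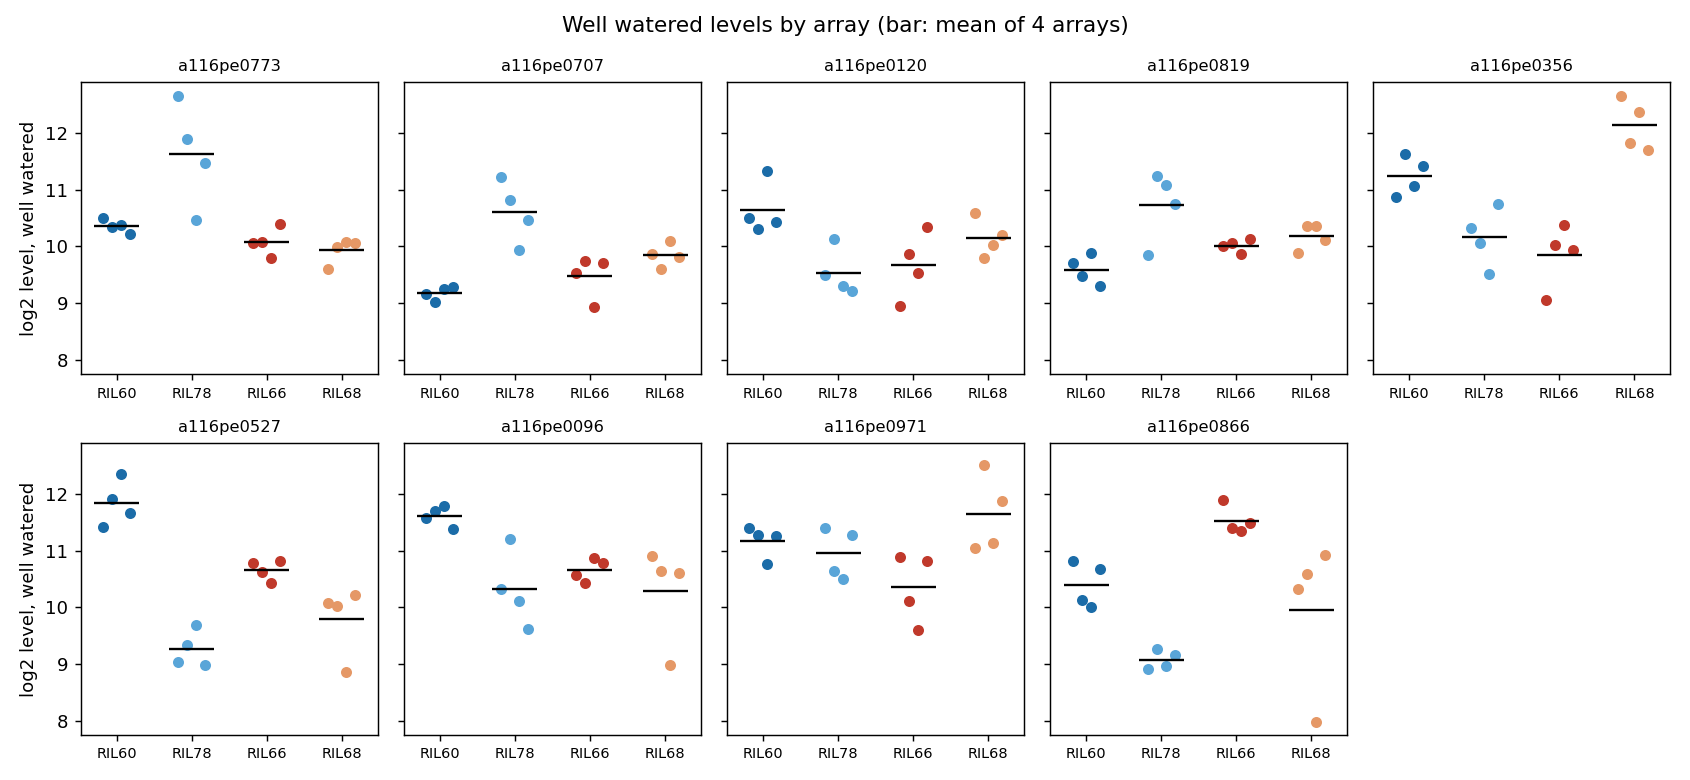
Well watered log2 level (vertical axis) on each array of the 4 lines for the 9 members with a called level difference between lines of a class; bars are means of 4 arrays. Among the called differences, RIL60 and RIL78 overlap only for a116pe0773 and a116pe0819, and RIL66 and RIL68 for none.

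In RIL66 minus RIL68 3 members passed (8.11%), against 5.1% of all probes and 9.14% of those in ranks 101 to 450. Probe a116pe0356 had levels of 9.05, 10.02, 10.38 and 9.93 in RIL66 and of 12.66, 11.82, 12.37 and 11.70 in RIL68. No array of one line reached the other, and the difference was -2.29 (SE 0.32, limma adjusted p = 0.000126), or 4.90-fold. Its background-subtracted responses in these lines were -0.18 ± 0.19 in RIL66 and -0.28 ± 0.31 in RIL68 (SD, n = 4 arrays each). With the header day as a block its level difference was -2.42 (limma adjusted p = 0.0933), and within the shared day -2.73 (limma adjusted p = 0.355).

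The level of a116pe0866 was higher in RIL66, by 1.57 (SE 0.44, limma adjusted p = 0.0398). Its RIL66 arrays lay at 11.89, 11.40, 11.34 and 11.48, above the RIL68 arrays at 10.32, 10.58, 7.98 and 10.93. Without the RIL68 array at 7.98, replicate 3, the difference was 0.90 (limma adjusted p = 0.0477). For a116pe0971 the difference was -1.29 (SE 0.35, limma adjusted p = 0.0356). Both calls ended in many leave-one-out fits, 9 of 16 for a116pe0866 and 6 of 16 for a116pe0971. With the header day as a block the difference of a116pe0971 was -0.49. With that block 0 members passed, with 8 of all 1000 probes called. Without replicate 2 of RIL60, or replicate 2, 3 or 4 of RIL66, 1 passed, with 43, 35, 41 and 27 of all probes called.

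Between the classes the well watered level is a description, since it enters the responses. Of the members 21 were higher in the tolerant lines and 16 lower, with a median difference of 0.04, against 0.0070 for all probes.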

How the data were processed

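Each of the 16 arrays carries 2048 spots: 1000 probes with 2 spots each, and controls. Per the file headers, the authors deposited linear scanner intensities with a local background for every spot and channel, and a mark that excluded some spots. A second table deposited by the authors holds log2 ratios, and the sources used here do not say how it was made. Matching by slide position gave correlations of 0.88 to 0.99 per array with the loess ratios. This sets its direction at stress over well watered and its medians between -0.000722 and 0.00144, while its scale is partly unknown (slopes of 0.397 to 0.990 on the scanner ratios of bright spots).

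Members followed the sign rule on background-subtracted ratios. For tests, intensities went through normexp (offset 50) and within-array loess, where control spots and excluded spots had weight 0. Duplicate spots were averaged and the labelled dyes set the signs. Levels used Aquantile scaling. Centring hides any shift common to all probes. Limma 3.58.1 in R 4.3.3 fitted 1 coefficient for each line plus a dye term to 16 arrays, after being tested on simulated data. Benjamini-Hochberg adjustment covered 1000 probes.

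The members and lists were chosen with earlier results of these data known. Named members were the 8 with the largest size in their weakest line, the 3 brightest and 3 dimmest, the 3 nearest to 0, and up to 5 per direction past the threshold in each test. Alternatives covered background, floor, normalisation, centring, deposited ratios, dim probes, excluded spots, dye term, replicate and header day blocks, array weights and each array left out. The within-day fits were added after seeing the data. The range of ranks 101 to 450 was also chosen then. The number of arrays limits the precision.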

Additional observations from a re-analysis of the deposited data

Results flagged for a closer look

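The response of a116pe0788 differed between the tolerant lines, with RIL60 minus RIL78 at 1.204 on the loess log2 scale. That of a116pe0813 differed between the susceptible lines, with RIL66 minus RIL68 at 1.181. Both differences were tested in the fit to all 16 arrays, on responses whose signs the rule had fixed.

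Among the 27 named members, 108 groups of 4 arrays were examined for a single array far from the rest. By Dixon's criterion 6 had one, where chance gives about 1 group in 20. The count is close to that share, so the 6 values are listed as a description only. On replicate 4 of RIL66 the background-subtracted ratio of a116pe0773 was -0.5578, with the other arrays of the line between -0.20 and -0.15. On the same array a116pe0994 was at -0.8915, with the others between -0.37 and -0.26. The third probe there was a116pe0954, at -0.5854 against -0.23 to -0.19. On replicate 4 of RIL68 a116pe0898 was at -0.2805, with the others between -0.11 and -0.09, and a116pe0120 was at -0.3553, with the highest of the others at 0.06. On replicate 2 of RIL68 a116pe0955 was at -1.554, with the highest of the others at 0.07. These 2 replicate 4 arrays, which hold 5 of the 6 values, also had the lowest median ratios of their lines over ranks 101 to 275, at -0.80 and -0.51. The part of that slope in the 6 values was not tested.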

How the results depend on the processing

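The number of members was 37 and fell to 0 without centring. With an array left out it lay between 19 and 43, lowest without replicate 4 of RIL68. Of the 37 members 11 kept their 4 signs with normexp and loess, 8 with the deposited ratios, 24 with the median over arrays and 0 without centring, and 18 to 37 with an array left out. For the tests, calls over all 1000 probes are in brackets, and they moved with the settings as well. Members with a response difference RIL60 minus RIL78 numbered 1 (25), and 2 with no background correction (34) or array weights (38). With an array left out there were 1 to 2. For RIL66 minus RIL68 there was 1 (10), and 2 with no background correction (21) or the deposited ratios (26). There were 0 with the day block (19), and 0 to 2 with an array left out. Dye effects numbered 9 (109), with 14 under array weights (224) and 6 to 12 with an array left out. Level differences RIL60 minus RIL78 numbered 7 (102), with 12 under array weights (141) and 4 to 10 with an array left out. There were 4 with the day block (63) and 4 within the shared day (64). Level differences RIL66 minus RIL68 numbered 3 (51), with 1 under plain subtraction (44) and 1 under median centring (13). There were 0 with the day block (8), and 1 to 4 with an array left out. The causes of these changes were not tested.

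Same-numbered arrays of RIL60 and RIL78 correlated in their residuals at -0.05 to 0.18, and those of RIL66 and RIL68 at -0.14 to 0.16. No pairing by number was thus seen in these residuals. Whether same-numbered arrays shared a field block or an extract cannot be told from them. With the replicate block the counts were 1 for both response differences, 7 for the RIL60 minus RIL78 levels and 3 for RIL66 minus RIL68. The 7 did not include a116pe0356 (limma adjusted p = 0.0537), which passed without the block. Dye effects fell to 0 with this block, for the members and for all 1000 probes. The replicate number and the dye nearly coincide in it. The dye, level and response difference coefficients of members that passed the threshold kept their signs in the settings run. Coefficients that did not pass were not followed over the settings. The line means turned for many members with loess. The coefficients followed were picked for passing, so their signs are not compared with those of the line means. Signal over background limits the dim members.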

Other observations

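Members were unevenly placed on the slide. Print rows 1 to 4 held 18 of the 37 members and 184 of the 700 probes of the window, rows 5 to 8 held 6 of 37 and 168 of 700, rows 9 to 12 held 11 and 183, and rows 13 to 16 held 2 and 165. The median rank of the window's probes was 472.5 in rows 1 to 4 and 436.5 in the rows below. Their median background-subtracted ratio was 0.02 against -0.01 in RIL60, -0.0082 against -0.04 in RIL78, -0.04 against -0.06 in RIL66 and 0.02 against -0.03 in RIL68. The part of slide position in the memberships was not tested.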
